A study of Mus musculus with 16 samples.

Results

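The cerebellar samples were 3 of the 16 two-colour arrays of the study, those on which GABAergic cells sorted from cerebellum were hybridised in the Cy5 channel against a total brain reference in the Cy3 channel. They were chosen by their titles, which give the region and a replicate number from 1 to 3. The cells came from GAD67-eGFP mice kept on a C57Bl/6 background and taken at postnatal day 1. GAD67 is the GABA-synthesising enzyme encoded by Gad1, and the green fluorescent protein was the property the sorter used. The labels do not say how the reporter was inserted into the genome, and they give no marker other than the fluorescence. The regional samples came from 6 mice, dissected to give cerebellum and 3 forebrain regions (striatum, cortex and olfactory bulb), and each region has 3 arrays. Which mouse gave cells to which sample is not stated. If the 6 mice are the total, some gave cells to more than 1 of the 12 regional samples. The fits treat these samples as independent. The reference was total brain RNA of 4 mice of the same age, amplified by PCR in the same way as the RNA of the sorted cells, and 250 ng of each cDNA was labelled. The design calls the samples of a region biological replicates. The reference is a common RNA and no sample of a group, so tests of the ratio leave out its own spread. The dyes were not swapped. The labels describe Cy3 as red, so each ratio takes its direction from the names of the dyes given for the channels.

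In the embryonic cerebellum, GABAergic neurons arise from the ventricular zone, where the factor Ptf1a sets their fate, while glutamatergic neurons, above all granule cells, arise from the rhombic lip, which expresses Atoh1. Purkinje cells are born first among the GABAergic types, and the precursors of inhibitory interneurons, which carry the factor Pax2, still divide and migrate around birth. Cerebellar GABAergic cells therefore have another origin than those of the forebrain, whose identity is set by Dlx genes in the ganglionic eminences.

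The measure throughout is the log2 ratio of sorted cells to reference, in which 1 is a 2-fold difference and 0 is no difference. A gene was called higher or lower where the mean of the 3 cerebellum arrays differed from 0 at an adjusted p under 0.05 by limma with Benjamini-Hochberg adjustment over 27262 genes. Because the reference is total brain, a high ratio can belong to GABAergic cells or to cerebellum as a whole, which cannot be told apart without unsorted cerebellum. In such bulk samples, fewer cells of a type and less RNA per cell cannot be told apart either. The genes the results turn on are also set against the mean of the sorted cells of olfactory bulb, cortex and striatum. These were measured against the same reference, and differences were called by the same rule. That comparison shows where cerebellar sorted cells differ from forebrain ones, and it cannot separate these possibilities either.

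The cerebellum arrays had a median signal of 331 to 718 in the sorted-cell channel and 156 to 254 in the reference channel, and 90.9% to 96.6% of their spots stood well above background for the sorted cells. Replicate 2 stood apart: 5.60% of genes lay more than 0.5 on the log2 scale from the mean of the other 2 cerebellum arrays, against 1.02% and 1.49% for replicates 1 and 3. In all, 20604 genes (75.6%) were called, 11578 (42.5%) higher and 9026 (33.1%) lower, so that a call alone says little about a gene. A difference of at least 2-fold was called for 2278 genes (8.36%) upward and 2269 (8.32%) downward, and the median log2 ratio of all genes was 0.08. The counts of list members below are to be read beside these shares of all genes. Without replicate 2, 18783 genes were called, with 2131 higher and 2231 lower by at least 2-fold. The balance depended on dye normalization: 50.1% of the 2-fold differences were upward after loess, 64.1% after median centring of each array.

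The genes of GABA synthesis and vesicular loading were higher in the cerebellar cells than in total brain. Gad1, whose GFP reporter defined the sort, had log2 ratios of 0.67, 1.26 and 0.58 on the 3 cerebellum arrays. All 3 lay above 0. Replicates 1 and 3 lay below the 9 arrays of the other regions, which ran from 0.70 to 1.06, and replicate 2 lay above them. The mean was 0.84 ± 0.10 (limma SE, n = 3, adjusted p = 2.42e-07), a 1.79-fold difference. Here and below, the SE rests on the spread shared by all groups and not on that of the 3 cerebellum arrays alone. Gad2, encoding the other glutamate decarboxylase, had values of 0.85, 1.17 and 0.68, all below the other regions' range of 1.65 to 1.97. It was higher than in the reference by 0.90 ± 0.08 and lower than in the other regions by 0.93 ± 0.09 (adjusted p = 5.02e-07). Slc32a1, the vesicular transporter that loads GABA and glycine, showed the reverse order. Its cerebellum values were 1.40, 1.79 and 1.31, all above the other regions, which ran from -0.12 to 0.72. The mean of 1.499 ± 0.11 was 0.98 ± 0.12 above that of the other regions (adjusted p = 8.47e-06).

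Of the 9 genes of GABA and glycine synthesis, release and uptake, 6 were called higher and 3 lower, with a median log2 ratio of 0.36. Over all genes these shares were 42.5% and 33.1%. The plasma membrane transporters took both directions. Slc6a9, a glycine transporter, was higher by 0.89. The glial and meningeal GABA transporters Slc6a11 and Slc6a13 were at -0.28 and -1.24. Slc6a5, the neuronal glycine transporter that marks glycinergic cells, was not well above background on any reference array and was at least 1.22-fold higher in the cerebellar cells, with single values of 0.31, 0.69 and 0.07. Its call was lost without replicate 2, at 0.19, and under median centring, at 0.01.

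The transcription factors of cerebellar GABAergic precursors stood highest among the lists examined. Of 15 members tested, 12 were called higher and 3 lower, and 7 were at least 2-fold higher and 1 at least 2-fold lower, against 8.36% and 8.32% of all genes. The median was 0.83. Relative to the other regions 7 of the 15 were at least 2-fold higher and none lower, against 0.653% and 0.517% of all genes. The list was written with earlier results of these data known, and its counts are a description.

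Pax2, the paired-box factor of interneuron precursors, had log2 ratios of 3.06, 3.06 and 3.39. The 9 other regional arrays ran from -0.19 to 0.41, so the groups lay far apart. Its mean of 3.17 ± 0.09 (SE, n = 3; adjusted p = 4.95e-15) is an 8.98-fold difference from total brain. Skor1, a SKI-family corepressor that binds Lbx1, had values of 2.69, 3.37 and 2.64, and a mean of 2.90 ± 0.10 (adjusted p = 2.77e-14). Its range in the other regions, -0.13 to 0.31, did not overlap these values. Lhx5, a LIM-homeodomain factor of early GABAergic and Purkinje cells, had values of 2.44, 2.55 and 2.55. The other regions ran from -2.38 to -1.01, on the opposite side of 0, and 6 of their 9 arrays had a sorted-cell signal well above background. The difference between cerebellum and the other regions, 4.36 ± 0.13 on the log2 scale or 20.5-fold (adjusted p = 4.19e-14), was the highest among the genes named by rule. It was 6.64 with the scanner software's own log ratio, in which dim signals are not shrunk.

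The AP-2 factors Tfap2a and Tfap2b, which act in cerebellar GABAergic differentiation, were both higher. Tfap2b had values of 1.22, 1.68 and 1.26 in cerebellum, whereas the other regions ran from -1.20 to -0.94, which gave a difference of 2.43 ± 0.09. Tfap2a had values of 1.40, 1.83 and 1.45, above the range of 0.13 to 0.68 elsewhere, and its mean of 1.56 became 2.54 when both of its probes were averaged. Lbx1, a homeobox factor of dorsal hindbrain and spinal GABAergic neurons, had values of 1.07, 1.89 and 1.02, with the reference well above background on 2 of the 3 arrays. In the other regions it was not well above background on any array, with ratios from -0.34 to -0.05. Sox14, a SoxB factor of midbrain and other GABAergic neurons, was higher by 0.83. Kirrel2, an adhesion molecule downstream of Ptf1a, was higher by 1.02, within the range of 0.54 to 1.08 in the other regions.

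The factors of dividing progenitors had lower ratios. Ptf1a was at 0.17, 0.20 and 0.15, within the range of the other regions, and its call was lost without any 1 of the 3 cerebellum arrays. Gsx1, a homeobox factor of progenitors, was at -0.64 and Olig2, which is also an oligodendrocyte factor, at -1.26. Among the neurogenins, Neurog1 was at 0.48 and Neurog2 at 0.69. The order of these factors on every regional array is plotted in the chart of precursor factors.

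**Figure D1:**
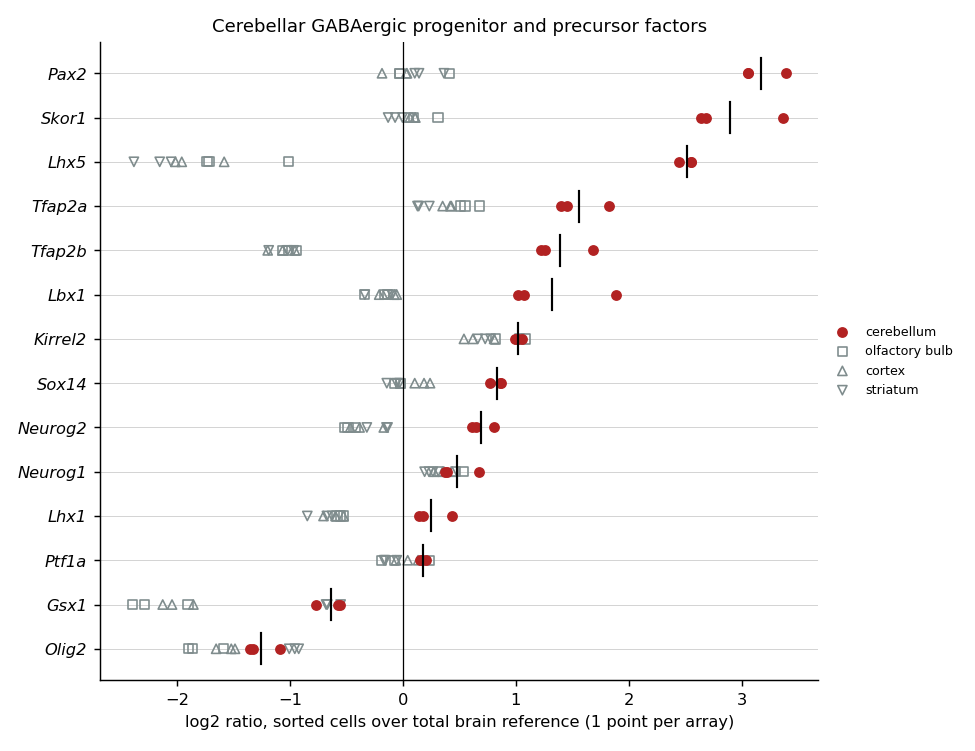
Log2 ratio of sorted cells over total brain reference for precursor factors, with 1 point per array: filled red circles are the 3 cerebellum arrays, open grey symbols the 9 arrays of olfactory bulb, cortex and striatum, and black bars the cerebellum means. Pax2, Skor1 and Lhx5 stand apart from every other regional array, while Ptf1a, Neurog1 and Olig2 overlap with them.

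Genes of Purkinje cells did not form a uniform group. Of 24 tested, 11 were called higher and 10 lower, against 42.5% and 33.1% of all genes. Of these, 2 and 6 exceeded 2-fold, against 8.36% and 8.32% of all genes, and the median was 0.11. That median changed sign, to -0.29, when the probes of each gene were averaged. The genes that lead the list were transcription factors. Ebf3, an early B-cell factor of postmitotic neurons, had values of 1.40, 1.57 and 1.30, with the other regions between -3.02 and -1.79, and a difference of 3.89 ± 0.09 from them. Its second probe was at -0.06 in cerebellum, and the mean of both probes was 0.68. Lhx1, a LIM-homeodomain factor, was at 0.18, 0.43 and 0.14 and lost its call without replicate 2, although its second probe was at 1.21. Ebf1, with values of -0.75, 0.05 and -0.08, was not called.

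The other Purkinje cell genes described here were mostly low or near 0. Calb1, the calcium buffer calbindin, had values of -1.997, -3.245 and -1.825, and a mean of -2.36 ± 0.18 (adjusted p = 7.71e-10). Foxp2, a forkhead factor of Purkinje cells, was at -1.42, -1.59 and -1.36, below the range of -0.04 to 0.52 in the other regions. Kitl, the ligand of Kit, was at -3.12 and Pcp4, a calmodulin regulator, at -2.70, although with probes averaged these were -2.25 and -1.37. Itpr1, the calcium release channel, was at -0.84. On the other side stood Pcp2, a G-protein regulator largely restricted to Purkinje and bipolar cells, at 0.45, but with 1 of its 3 probes at -1.64 and a mean of probes of -0.33. Car8 was at 0.60 with 1 of its 2 probes at -0.25. Slc1a6, the Purkinje glutamate transporter, was at 0.25 and lost its call without replicate 1, at 0.23, or 2, at 0.20. Rora, an orphan nuclear receptor that Purkinje cells need to mature, was at 0.07 and not called.

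Among 11 tested genes of cerebellar inhibitory interneurons, 7 were called higher and 4 lower, with 3 at least 2-fold in each direction and a median of 0.47. Over all genes the shares were 42.5% and 33.1%, and 8.36% and 8.32% at 2-fold. The 3 high members, Pax2, Tfap2a and Tfap2b, are those described above. Kit, a receptor tyrosine kinase of molecular layer interneurons, had values of 0.42, 0.53 and 0.45, against -1.55 to -0.92 in the other regions, a difference of 1.61 ± 0.08. Grm2, a metabotropic receptor of Golgi cells, was at 0.78, with another of its 3 probes at -1.16 and a mean of probes of -0.25. The 3 low members were Sorcs3 at -1.59, Cplx2 at -1.56 and Nxph1 at -1.47, of which Cplx2 had a probe of opposite sign at 0.55.

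Genes of the granule cell and rhombic lip lineage, which gives rise to glutamatergic neurons, were also high. Of 24 tested, 16 were called higher and 5 lower, against 42.5% and 33.1% of all genes, with a median of 0.58. A difference of at least 2-fold was called for 8 upward and none downward, against 8.36% and 8.32% of all genes. Relative to the other regions 10 were at least 2-fold higher and 1 lower, against 0.653% and 0.517% of all genes. The zinc finger genes led. Zic1 had values of 2.26, 2.70 and 2.19, above the range of -0.76 to 0.97 elsewhere, and Zic2 had values of 2.18, 2.51 and 2.07, above the range of -1.20 to 0.02. The means of Zic1 and Zic2 were 2.38 ± 0.08 and 2.26 ± 0.08. Zic5 followed at 1.36, and Zic4 was at -0.28 with its 2 probes of opposite sign.

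The basic helix-loop-helix genes of the lineage were higher as well. Neurod1, a factor of differentiating granule cells, had values of 1.47, 2.12 and 1.45, with the reference well above background on 1 of the 3 arrays. Nhlh2 had a mean of 1.79 and Nhlh1 of 1.19. Atoh1, the factor of the rhombic lip itself, had values of 0.71, 0.84 and 0.57, above the other regions, which ran from -0.34 to 0.25. The netrin receptor gene Unc5c was at 1.49. Reln, the secreted protein that granule cells supply to Purkinje cells, was at 0.12, 0.35 and 0.00 and was not called against the reference, but the other regions lay between -2.35 and -1.26, a difference of 2.13 ± 0.10 that was 1.18 with probes averaged. Among genes of mature granule cells, Cbln1 was at -0.26 and Gabra6 at -0.01, the latter well above background on 1 sorted-cell array and no reference array. The part of granule lineage cells in these results was not tested.

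Genes that pattern midbrain and hindbrain separated cerebellum from the forebrain samples. Of 25 tested, 16 were called higher and 3 lower, against 42.5% and 33.1% of all genes, with a median of 0.38. A difference of at least 2-fold was called for 5 upward and 2 downward, against 8.36% and 8.32% of all genes. Relative to the other regions 7 were at least 2-fold higher and none lower, against 0.653% and 0.517% of all genes. Cnpy1, a regulator of FGF signalling at the boundary of midbrain and hindbrain, had values of 2.77, 3.27 and 2.78, against -0.25 to 0.00 elsewhere. Its mean was 2.94 ± 0.12 (adjusted p = 1.25e-13). Otx2 had values of 1.98, 2.15 and 2.05, against -1.38 to -0.19 elsewhere. Otx2 is also a gene of choroid plexus and of posterior granule cell precursors. The choroid plexus gene Ttr was at -2.47, -3.13 and -2.48 on the same arrays.

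Gata3 and Tal1, factors of midbrain and hindbrain GABAergic neurons, were at 1.15 and 1.21 in cerebellum and below 0 in each other region, and their partner Gata2 was at -0.17 and not called. Mab21l1 was at 0.40, with a difference of 2.63 ± 0.09 from the other regions. The engrailed genes were modest: En2 was at 0.31, 0.68 and 0.43, with the other regions all below 0, and En1 at 0.23, with the reference well above background on 1 of 3 arrays. Pax8, the relative of Pax2, was at 1.06 with its second probe at 0.13. Gbx2, a factor of the anterior hindbrain, was at -1.72 with its second probe at -0.21.

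Transcription factors of forebrain GABAergic cells were low relative to the other regions, while some of them stood above total brain. Of 17 tested, 8 were called higher than in total brain and 7 lower, against 42.5% and 33.1% of all genes. Of these, 1 and 3 exceeded 2-fold, against 8.36% and 8.32% of all genes. The median of 0.14 became -0.24 when probes were averaged. Without replicate 2, 1 forebrain factor was at least 2-fold lower. Relative to the other regions 8 were at least 2-fold lower and none higher, against 0.517% and 0.653% of all genes. Dlx1 had values of 0.58, 0.68 and 0.63 in cerebellum and from 3.22 to 3.84 in the other regions, a difference of -2.91 ± 0.08 (adjusted p = 1.98e-14). All 3 cerebellum arrays stood above 0 and far below the other regions. Dlx5, Dlx6 and the antisense transcript Dlx6os1 showed the same order, at 0.56, 0.65 and 1.28 in cerebellum. Dlx2, at -0.06, -0.35 and 0.10, was not called. Dlx6os1 lies antisense to Dlx6, and the arrays report each by its own probe. Sp8, a zinc finger factor of interneurons, was at 0.73 against 2.63 to 3.36 elsewhere.

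Lineage factors of the medial ganglionic eminence were below total brain, with Nkx2-1 at -1.36, Lhx8 at -1.02 and Lhx6 at -0.61. Meis2, a striatal and olfactory bulb factor, was at -0.21, whereas it was above 0 in each other region. Of 14 telencephalic patterning genes, 3 were called higher and 8 lower, of which 1 and 5 exceeded 2-fold, with a median of -0.38. For this list and the striatal one below, the shares of all genes were 42.5% and 33.1%, and 8.36% and 8.32% at 2-fold. Bcl11b, a factor of striatal and deep-layer cortical projection neurons, was at -2.03, against -0.67 to 1.097. Emx2 was the member above 2-fold, at 1.07, or 0.44 with probes averaged. Of 19 striatal projection neuron genes, 7 were called higher and 11 lower, of which 1 and 6 exceeded 2-fold, with a median of -0.42, and Penk and Foxp1 were at -2.23 and -1.51.

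Among all genes tested, 10908 (40%) differed between cerebellum and the mean of the other regions, but only 319 (1.17%) by at least 2-fold, 178 higher and 141 lower. Without replicate 2 of cerebellum, 8847 differed, 158 and 152 of them by at least 2-fold. Of the 319, 17 had under 50% of the difference in the sorted-cell channel, the remainder lying in the reference channel. The rule for named genes returned for the upper end Lhx5, Ebf3, Cnpy1, Pax2, Asic4, Otx2, Skor1, Neurod2, Ptprk and Zic2, and for the lower end, among others, Dlx1, Etv1, Dlx6os1, Bcl11b, Tiam2, Sp8, Tshz1, Sox2 and Dlx5. Every one of these genes had its 3 cerebellum arrays beyond all 9 other arrays, which the rule required. That held for 5702 genes (20.9%).

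Some of these differences came from low values in the other regions and not from high values in cerebellum. Asic4, a proton-gated channel family member, was at 0.47 in cerebellum and between -2.95 and -2.08 elsewhere. Neurod2, a factor of glutamatergic neurons, was at 0.18 against -2.88 to -2.30, and its call against the reference was lost without any 1 of the 3 cerebellum arrays. Ptprk, a receptor phosphatase, was at -0.55 against -3.92 to -2.44, a difference of 2.78 that was 1.78 with probes averaged. At the lower end, Etv1, an ETS factor, was at -0.59 against 1.44 to 2.67, Tshz1 at -0.86 against 0.93 to 1.87 and Sox2, a factor of neural progenitors and some interneurons, at -0.54 against 1.16 to 1.85. Tiam2, an activator of Rac, was above total brain in cerebellum at 1.03 but higher still elsewhere, at 3.03 to 3.55. Among the genes of the lists, 30 were called with one sign in cerebellum and the opposite sign in each other region, a pattern of 202 genes (0.741%) over all. The chart of differences between regions shows the genes named by rule array by array.

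**Figure D2:**
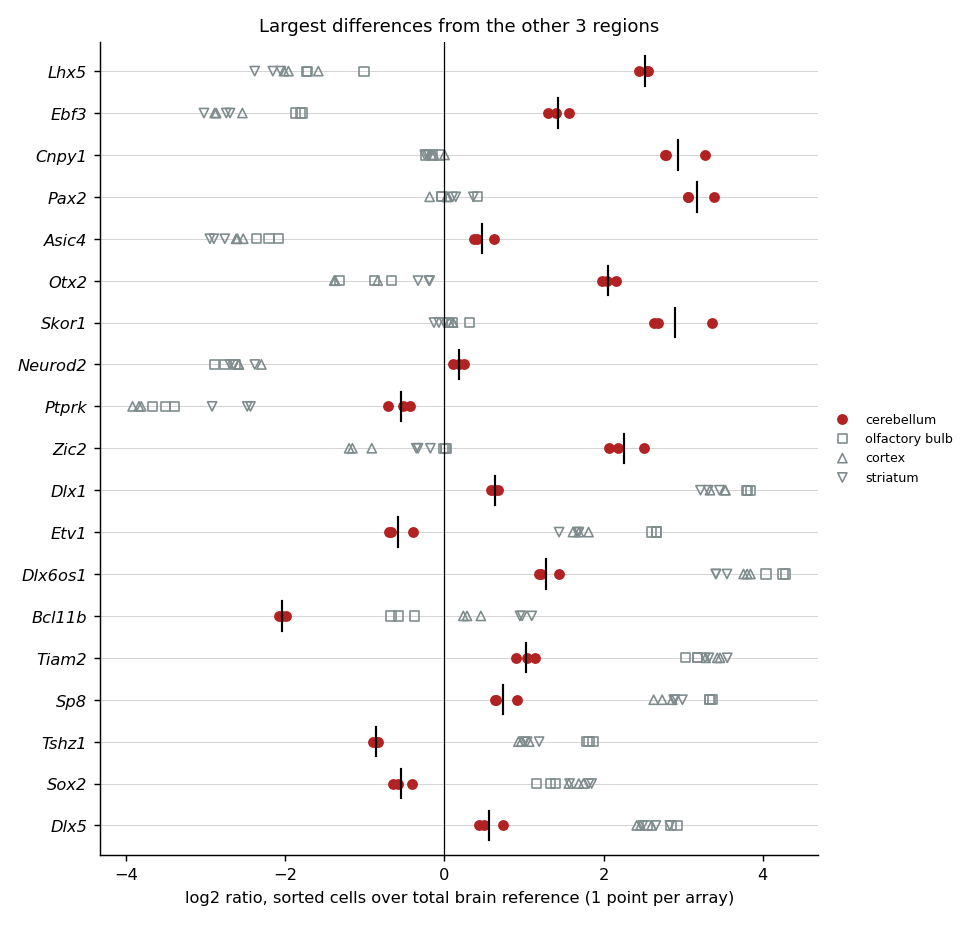
Log2 ratio of sorted cells over total brain reference on each of the 12 regional arrays for the genes highest and lowest in cerebellum relative to the other 3 regions, chosen by that difference. Filled red circles are cerebellum arrays, open grey symbols the other regions and black bars the cerebellum means. Dlx1, Dlx6os1, Sp8 and Dlx5 lie above 0 in cerebellum yet below all other arrays, and Asic4 and Neurod2 lie near 0 in cerebellum with low values elsewhere.

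Genes of glutamatergic forebrain neurons were low against total brain, as were genes shared by most postmitotic neurons. Of 16 forebrain glutamatergic genes, 3 were called higher and 11 lower, none 2-fold higher and 8 at least 2-fold lower, with a median of -1.02. Relative to the other regions 5 of the 16 were at least 2-fold higher and 1 lower, against 0.653% and 0.517% of all genes. Slc17a7, a vesicular glutamate transporter, had values of -3.31, -4.17 and -3.11, overlapping the other regions, which ran from -3.49 to -2.42. Its mean of -3.53 ± 0.16 (adjusted p = 9.65e-13) is an 11.6-fold difference. Slc17a6, the transporter of brainstem and early neurons, was at -1.12, Fezf2 at -3.08 and Tbr1 at -2.38. Of 17 postmitotic neuron genes, none was higher and 13 were lower, 10 by at least 2-fold, with a median of -1.21. Gap43, a growth cone protein, had values of -3.06, -2.88 and -3.08, above the range of -4.15 to -3.63 in the other regions. The neurofilament gene Nefl was at -2.20, and Tubb3 and Syp at -1.95 and -1.53. Dcx, the doublecortin of migrating neurons, was at -0.21 and, with its 3 probes averaged, at 0.24, and Map2 and Elavl4, at -0.11 and 0.01, were not called.

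Markers of other cell types were mostly lower than in total brain. Of 22 genes of astrocytes, radial and Bergmann glia, 4 were called higher and 17 lower, of which 2 and 10 exceeded 2-fold, with a median of -0.96. Gja1, a gap junction protein, was at -2.58, Aldoc at -2.34, Fabp7 at -1.53 and Gdf10, a Bergmann glia gene, at -1.34. The members above 2-fold were S100b at 1.09 and Hes5 at 1.48. Endothelial and mural genes were lower for 11 of 15 and higher for 3, with 6 at least 2-fold lower and a median of -0.88, and Cldn5, a tight junction protein, was at -1.63. For meninges, choroid plexus and ependyma, 13 of 16 were lower and 1 higher, 10 and 1 by at least 2-fold, with a median of -1.58. Ptgds, a prostaglandin synthase, was at -3.56 and Igf2 at -3.38. The higher member was Otx2.

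Microglia and oligodendrocyte genes were less uniform. Of 14 microglia and macrophage genes, 3 were called higher and 7 lower, none by 2-fold, with a median of -0.24, and the median per cerebellum array ran from -0.23 to -0.19. C1qa and C1qc were at -0.84 and -0.88, whereas C1qb was at 0.82. Of 14 oligodendrocyte lineage genes, 6 were higher and 7 lower, of which 3 and 4 exceeded 2-fold, with a median of -0.02 and array medians from -0.05 to 0.04. Relative to the other regions 3 of the 14 were at least 2-fold higher and none lower, against 0.653% and 0.517% of all genes. Olig1, Sox10 and Cnp were at -1.76, -1.42 and -1.08. Mog, a myelin glycoprotein, had values of 2.52, 2.18 and 2.87, but its 3 probes ran from -1.68 to 2.52 with a mean of 0.06, and no member was at least 2-fold higher with probes averaged. The part of these cell types in the other results was not tested.

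**Figure D3:**
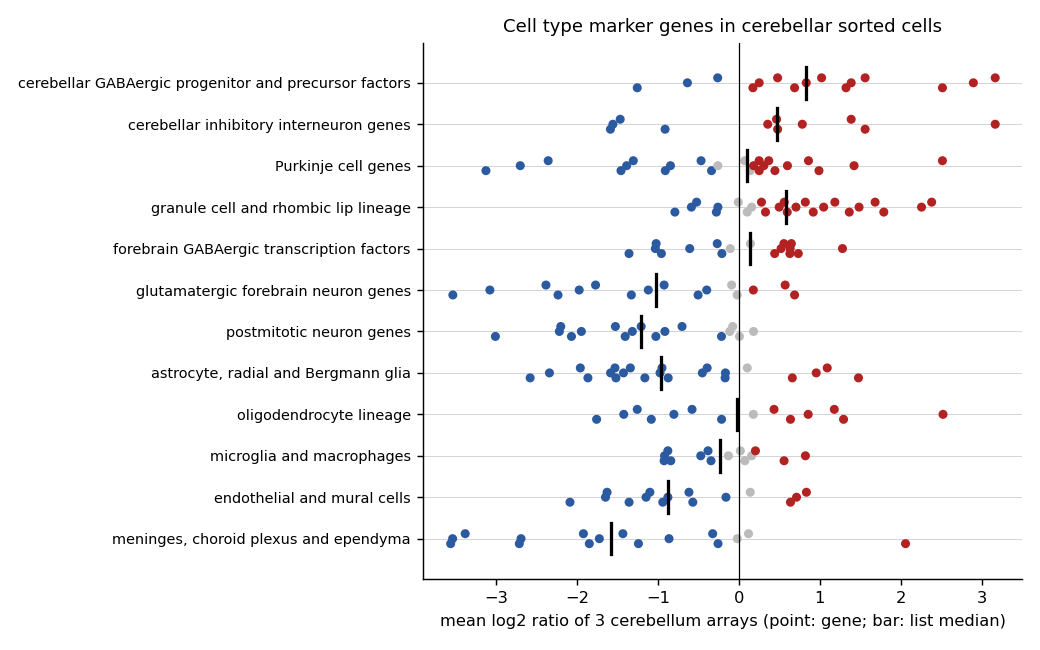
Mean log2 ratio of the 3 cerebellum arrays for the tested genes of 12 cell type lists, with 1 point per gene and a black bar at the median of each list. Red points were called higher than total brain, blue points lower and grey points were not called. The medians run from 0.83 for the precursor factors to -1.58 for meninges, choroid plexus and ependyma, and genes shared by lists appear in each.

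Receptor genes were more often below total brain than above, and channel genes were evenly split. Of 20 GABA and glycine receptor genes, 5 were called higher and 11 lower, of which none and 5 exceeded 2-fold, with a median of -0.31. The subunit gene Gabra5 was at -1.999 and Gabra3 at -1.74 with another probe at -0.05. Gphn, the scaffold gephyrin, was at 0.88 but at -0.16 with its 4 probes averaged, and Gabra4 and Gabrd were at 0.52 and 0.54. Of 17 ionotropic glutamate receptor genes, 4 were higher and 11 lower, of which 1 and 3 exceeded 2-fold, with a median of -0.81. Gria1 was at -1.50 and Grin1, the obligatory NMDA receptor subunit, at -0.83, and the high member was Grin2c, an NMDA subunit of mature cerebellum, at 1.01. Of 25 voltage-gated channel genes, 10 were higher and 10 lower, against 42.5% and 33.1% of all genes. Of these, 1 and 6 exceeded 2-fold, against 8.36% and 8.32% of all genes, and with probes averaged 2 were at least 2-fold lower. The channel median of -0.08 became 0.09 under median centring. Scn2a, a sodium channel of immature axons, was at -1.77, and Kcna2 and Kcna1, potassium channels of basket cell terminals, were at 0.97 and 0.85. The other regions ran from -0.01 to 0.40 for Kcna2 and from 0.56 to 1.04 for Kcna1, a range that holds the cerebellum value.

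Signalling pathways of the newborn cerebellum were represented on both sides. In the Sonic hedgehog pathway, the mitogenic signal of Purkinje cells, 9 of 12 genes were called higher and 1 lower, 2 at least 2-fold higher, with a median of 0.46. The ligand Shh was at 0.45, 0.28 and 0.38, overlapping the other regions. The receptor gene Ptch1 was at 1.03 with its second probe at 0.08, the pathway inhibitor Sufu at 1.40 and the effectors Gli1 and Gli2 at 0.29 and 0.60. Gas1, a coreceptor, was at -0.93. In the Reelin pathway 1 of 8 was higher and 4 lower, 2 by at least 2-fold (none with probes averaged), with a median of -0.32. The receptor genes took opposite directions, Vldlr at -1.09 with a second probe at -0.15 and Lrp8 at 0.48 with a second probe at -0.68 and a mean of probes of -0.10.

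In the Notch pathway 11 of 20 genes were called higher and 9 lower, against 42.5% and 33.1% of all genes, with a median of 0.23. A difference of at least 2-fold was called for 2 in each direction, near the 8.36% and 8.32% of all genes. Without replicate 2, 4 were at least 2-fold higher. The ligand genes Dll1 and Dll4 were at 0.30 and 0.94 and the receptor genes Notch2 and Notch3 at 0.85 and 0.25. Notch1 was at -0.21, but at 0.036 under median centring. The targets Hes5 and Hes1 took opposite directions, at 1.48 and -1.86. Hes5 had values of 1.41, 1.59 and 1.43, above the other regions, which ran from 0.67 to 1.16. Mib1, a ligase that activates Notch ligands, was at 2.10 with its second probe at -0.21 and a mean of probes of 0.94.

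Guidance genes included some of the higher ratios. Of 31 tested, 10 were called higher and 17 lower, against 42.5% and 33.1% of all genes, with a median of -0.24. Of these, 4 and 7 exceeded 2-fold, against 8.36% and 8.32% of all genes. Relative to the other regions 6 were at least 2-fold higher and 2 lower, against 0.653% and 0.517% of all genes. With probes averaged, 4 were at least 2-fold lower than in total brain. Robo3, a Slit receptor family member of commissural axons, had values of 2.02, 2.61 and 2.04, against 0.27 to 0.67 elsewhere, and both of its probes were above 2.2. Ephb1 had values of 2.40, 1.78 and 2.51, against 0.21 to 0.86. Unc5c, described above, and Slit2, at 1.33 but 0.13 with its 6 probes averaged, were the other members above 2-fold. Efna5 was at 0.66 with a difference of 1.56 from the other regions. Epha5 was at -2.52 with a second probe at -0.60, and Efnb3 at -1.93. Efnb2 was at -0.47, whereas each other region was above 0.

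Among 26 genes of the cell cycle, 15 were called higher and 3 lower, against 42.5% and 33.1% of all genes, with a median of 0.20. A difference of at least 2-fold upward was called for 3, a share near the 8.36% of all genes. Birc5, the chromosomal passenger survivin, had values of 1.33, 1.79 and 1.15, overlapping the other regions, which ran from -0.39 to 1.28. Plk1, a mitotic kinase, was at 1.38 and Mcm4, of the replicative helicase, at 1.12, both above all other regional arrays. Mki67 was at 0.56, 1.23 and 0.58, and Ccnd1 at 0.71. Top2a and Cdk1, at 0.02 and -0.15, and Pcna at -0.17 were not called.

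Cells induce immediate early and handling stress genes within minutes of stimulation or dissociation. Of 24 tested, 14 were called higher, 2 lower and 8 neither, against 42.5% and 33.1% of all genes called higher and lower. Of the 14, 7 were at least 2-fold higher, and the median of the list was 0.67. With probes averaged, 4 were at least 2-fold higher and the lowest median over the alternatives was 0.20. Fos, the activator protein 1 subunit, had values of 3.20, 4.10 and 2.98 and the highest mean of the genes named against the reference, 3.43 ± 0.15 or 10.8-fold (adjusted p = 3.38e-13). It overlapped the other regions, which ran from 1.37 to 3.22. Egr1 had values of 2.19, 2.57 and 1.92 and Fosb of 1.94, 1.98 and 2.05, the latter with a second probe at -0.37 and a mean of probes of 0.81. Ier2, Jun and Dusp1 had means of 1.70, 1.35 and 1.19, Ier2 with a second probe at -0.09. Arc and Nr4a1, genes induced by neuronal activity, were at 0.12 and 0.25 and were not called, and Hspa1b was at 0.68. The reference RNA was extracted from whole brain without a sort, and the part of handling in these values was not tested.

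The sequence TGACG, the core of the cAMP response element, was searched because Fos, Fosb and Egr1 of this list were among the higher ratios. Both strands were searched in the 250 bases before the start of each gene that had a RefSeq window of GRCm38.p6. Of the 24 members tested, 20 had such a window, and the remaining members were not searched. TGACG was present for 11 of the 20 list members with a window and for 19.8% of 27025 genes. Among the 12 members that were called higher and had a window, 6 carried it. The full palindrome TGACGTCA, which contains TGACG, was present for 2 of the 20 and 1.77% of all genes, and the CArG box, the site of serum response factor, for 2 of the 20 and 1.62%. Egr1 was not among the members found to carry TGACG or the CArG box. Because members without a window were not searched, that absence does not show that Egr1 lacks these sites. A match describes letters and shows no binding. Stretches of 60 bases around the site closest to the start are shown for Fos and Fosb, which were high, and for both members with the palindrome, with the motif in capitals.
Fos, chr12:85473796-85473855, plus strand: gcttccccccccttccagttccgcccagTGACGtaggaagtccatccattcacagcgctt
Fosb, chr7:19310074-19310133, minus strand: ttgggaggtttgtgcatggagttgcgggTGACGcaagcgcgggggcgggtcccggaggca
Dusp1, chr17:26508582-26508641, minus strand: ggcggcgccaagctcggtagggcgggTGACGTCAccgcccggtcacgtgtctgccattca
Btg2, chr1:134079288-134079347, minus strand: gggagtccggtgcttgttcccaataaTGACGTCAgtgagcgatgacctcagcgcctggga
Fos and Fosb share the core alone, and Dusp1 and Btg2, at 1.19 and 0.68, carry the palindrome. Within the precursor factors, 2 of 13 members with a window carried TGACG, Lhx1 and Tfap2b. CAGCTG, an E-box that basic helix-loop-helix factors bind, was present for 1 of the 13, Pax2, for 6 of the 20 immediate early and stress members and for 14.7% of all genes.

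Peptide genes took both directions. Of 14 neuropeptide genes tested, 4 were called higher and 7 lower, of which 1 and 6 exceeded 2-fold, with a median of -0.13. Npy had values of -2.91, -2.97 and -2.91, all below the other regions, which ran from -2.31 to -0.86. Sst had values of -1.49, -1.18 and -1.43, all above the other regions, which ran from -4.55 to -2.08, with a difference of 1.89 ± 0.10. Nts, neurotensin, was at -3.38. Cort, a peptide of cortical interneurons, and Pdyn were at 0.50 and 0.69, and Tac1, at 1.06, had a probe at -2.27 and a mean of probes of -0.68.

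**Figure D4:**
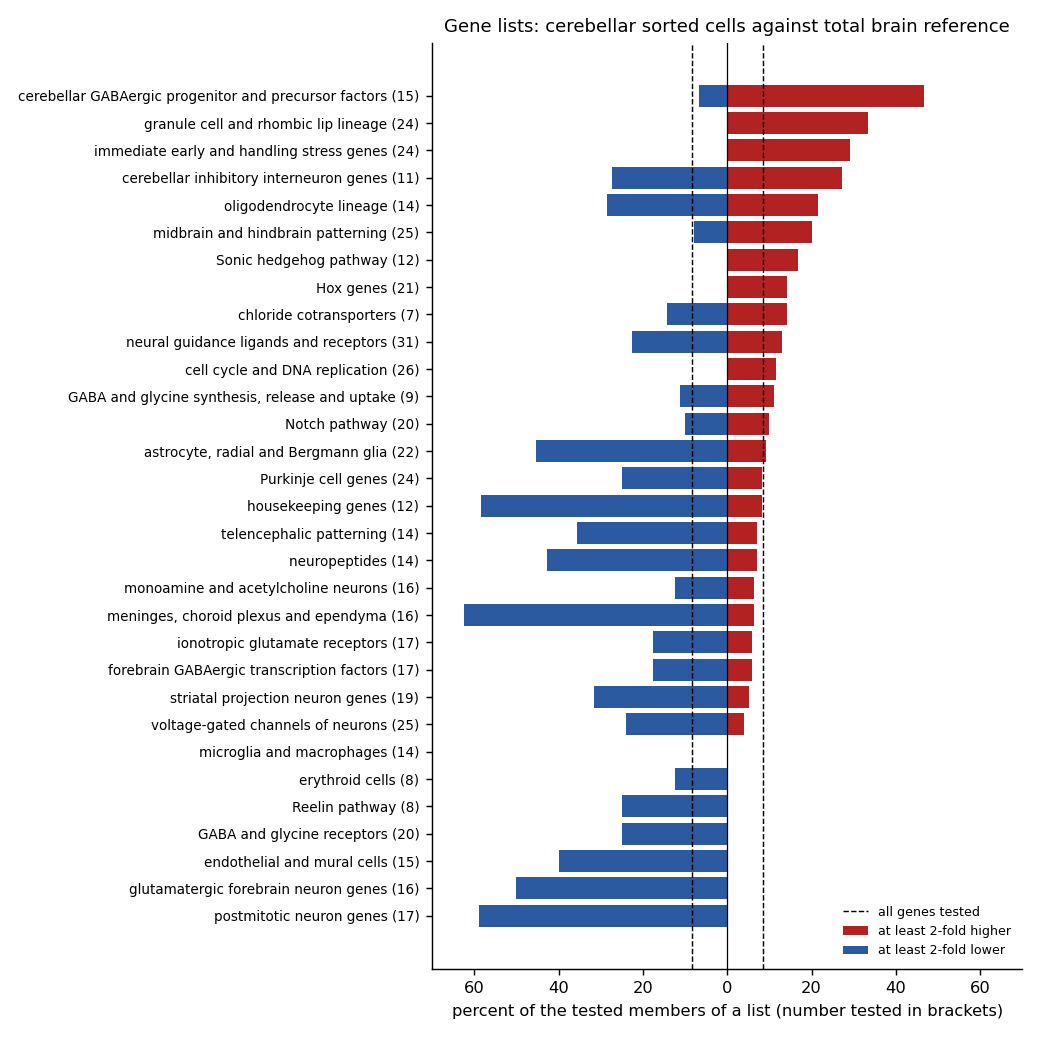
Percent of the tested members of each of 31 gene lists that were called at least 2-fold higher (red, right) or lower (blue, left) in cerebellar sorted cells than in total brain, with the number tested in brackets. Dashed lines mark the 8.36% and 8.32% of all genes tested. The precursor factors, with 7 of 15, reach furthest to the right, and meninges, choroid plexus and ependyma, with 10 of 16, furthest to the left.

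The remaining genes named against the reference were of mixed function. Above it stood Chd7, a chromatin remodeller, at 2.47, Insm1, a zinc finger factor of newborn neurons, at 2.40, Kcna7 at 2.34, Fgb at 2.36, Ugt2a3 at 2.54 and the nuclear RNA Malat1 at 2.68 with saturated signal on 1 array. Insm1 had values of 2.35, 2.55 and 2.31, above the other regions, which ran from 0.75 to 1.94. Below it stood Cwc22, a splicing factor, at -4.32 or 20-fold, Enc1 at -3.72, Prkar1b at -3.31, Cyria at -3.29, the noncoding Snhg11 at -3.29 and Thy1 at -3.24. Such ratios were not particular to cerebellum. The means of the other regions lay between -4.48 and -4.14 for Cwc22, -4.20 and -2.90 for Enc1 and -3.53 and -3.24 for Thy1. They lay between -4.65 and -4.27 for Snhg11 and between 2.16 and 3.12 for Malat1. Chrna4, a nicotinic receptor subunit, was at -3.29 with its second probe at -0.22. Spp1, osteopontin, was at -3.54 and differed from the other regions by -2.47, or by -0.91 in the sorted-cell channel alone.

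Housekeeping genes did not sit at 0. Of 12 tested, 3 were called higher and 8 lower, of which 1 and 7 exceeded 2-fold, with a median of -1.07, and with probes averaged 4 were at least 2-fold lower. Actb was at 1.28, 1.53 and 1.28, and Pgk1, Ppia and B2m were at -1.75, -1.63 and -1.40. The same 3 genes were between -2.43 and -1.20 as means of the other regions.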

How the data were processed

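Sorted GABAergic cells and a common total brain reference were hybridised to 16 two-colour Agilent arrays, 4 of whole brain and 3 for each region. Per the file headers, the authors deposited mean and local background spot intensity in both channels, quantified with Agilent Feature Extraction 8.1.1.1 (named in the submitters' processing notes), and a log10 ratio made by that software after background subtraction and dye normalization. Values in the authors' deposited series table differed from this log10 ratio by less than 0.005 on every array, which gives their scale and direction. The file lines were complete except for 1 spot, which was dropped. From the deposited intensity values, limma 3.58.1 under R 4.3.3 computed log2 ratios (data.table, version 1.17.8) through normexp background correction with offset 50, which shrinks ratios of dim spots towards 0, loess within each array with weight 0 for controls and outlier spots, and no scaling between arrays.

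The 41534 spots that are not controls made 41174 probes and 28655 genes. Probes took symbols from a RefSeq table (GRCm38.p6) by accession for 21445, by symbol for 5431 and by synonym for 4636, and 9662 kept the array's name. The brightest probe stands for a gene. Several probes were present for 8598 genes, of which 90 had a probe past 2-fold in each direction, and probes that disagree are given beside the genes named. Genes well above background on at least 3 arrays for sorted cells or on 8 for the reference were tested, 27262 in all. For a gene dim on all arrays of a side, the fold is a bound, with dim signals raised to the lowest signal well above background. The number of arrays limits the precision.

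All 16 arrays were fitted with 5 group means (lmFit, eBayes), so the groups share an estimate of the spread, and SE values are those of limma. The p-values measure the spread between samples. Named by rule were the 12 highest and 12 lowest genes against the reference and the 10 at each end against the other regions, called, of the same direction on every array (for regions, beyond every other array), with a symbol of the reference table that is no clone, LOC, Gm or Rik name, well above background on all arrays of their brighter side and with all probes of the same sign in that comparison. Beside them stand members of 31 gene lists, and list genes of opposite sign to each other region. Some named genes and list members are counted but not reported here by name. Members and lists were chosen with earlier results of these data known. No set test was run. The fit was tested on simulated data. For same-numbered replicates, 4 of 18 correlations of deviations from the region means were over 0.1 (from -0.101 to 0.211). For other numbers they ran from -0.218 to 0.219. With 3 arrays per region this cannot show whether samples share mice, and no pairing was used in the main fit. The 12 regional arrays share 1 scan date and each array is on its own slide, so no such block was fitted. Alternatives covered background, normalization, filter, probe choice, samples, spread, threshold, channels and single arrays. Figures were drawn with matplotlib 3.10.9 and pandas 2.3.3.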

Additional observations from a re-analysis of the deposited data

Results flagged for a closer look

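Among the genes of the lists, 30 were called against total brain in cerebellum with one sign and in olfactory bulb, cortex and striatum each with the other sign. Over all genes tested, 202 of 27262 (0.741%) had this pattern. For each gene below, limma with Benjamini-Hochberg adjustment called the difference itself, given as the log2 ratio in cerebellum minus the mean of the other regions. A call in each of 4 regions was part of how these genes were picked, so the list is a description.

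In 22 of the 30, cerebellum stood above total brain and the other regions below it. The precursor and midbrain or hindbrain factors among them were Lhx5 (4.36), Tfap2b (2.43), Neurog2 (1.03), Lhx1 (0.88), Mab21l1 (2.63), Gata3 (2.04), Tal1 (1.81) and En2 (1.28). Fgf18, a growth factor of the midbrain and hindbrain boundary, had a difference of 0.90. From the granule cell lineage and its glutamatergic relatives came Zic5 (2.60), Nhlh2 (2.16), Nhlh1 (1.68), Neurod2 (2.79) and Eomes (0.76), a factor of unipolar brush cells in cerebellum and of cortical progenitors. Ebf3 (3.89) and Kit (1.61) belong to the Purkinje and interneuron lists. Signalling genes included Sema6a, a transmembrane semaphorin (1.40), Boc, a hedgehog coreceptor (0.99), Hey1, a Notch effector (0.97) and Notch3 (0.75). Mcm3, of the replicative helicase, had a difference of 0.79.

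In the remaining 8, cerebellum stood below total brain and the other regions above it. Among them were Etv1 (-2.57), Efnb2 (-1.47), Meis2 (-1.35), Plxna2, a plexin receptor (-1.29), Mfng, a glycosyltransferase that modifies Notch (-0.78) and Notch1 (-0.71). For Ebf3, Sema6a, Boc, Mcm3 and Notch1 another probe had the opposite sign against the reference, at -0.06, -0.75, -0.02, -0.71 and 0.16.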

How the results depend on the processing

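Calls of the 52 named genes given relative to the other regions kept direction and side of the threshold under every alternative run for them. Those named by rule and those of opposite sign were picked with this same difference, so their stability was largely set by that choice. Of 206 genes named against the reference, 189 did so with probes averaged, 191 under median centring and 151 in a test against a 1.5-fold difference. With probes averaged the sign turned for Dcx (0.24), Gphn (-0.16), Grm2 (-0.25), Lrp8 (-0.10), Mcm3 (-0.16), Pcp2 (-0.33) and Tac1 (-0.68). It turned under median centring for Notch1 (0.036). With the brightest probe among those named by accession, an alternative chosen after seeing the data, it turned for Car8 (-0.25), Lrp8 (-0.68), Notch1 (0.16) and Tac1 (-2.27). The cause was not tested.

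Counts moved with scale. Against the reference, 7104 genes and 222 of 419 called list genes passed a test against a 1.5-fold difference, and the scanner software's log ratio gave 4774 genes 2-fold higher and 3470 lower. Relative to the other regions, the 2-fold counts were 327 and 219 with normexp offset 10 and 643 and 494 with the scanner log ratio. There were 224 lower under median centring and 392 higher in the sorted-cell channel alone. Against single regions there were 392 and 267 for olfactory bulb, 219 lower for striatum and 6956 calls in all for cortex. The upward share of 2-fold differences relative to the other regions was 55.8%, 46% under median centring and 64.6% after scaling between arrays, and against the reference it was 57.9% with the scanner log ratio. The median log2 ratio of all genes against the reference stayed between 0.07 and 0.16 under these settings. With an array left out, 18783 to 19525 genes were called against the reference, with 2131 to 2426 and 2231 to 2343 by 2-fold, and 398 to 402 list genes. Relative to the other regions the ranges were 8847 to 10858, 158 to 205 and 129 to 161.

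List medians turned sign for Purkinje genes (-0.29) and forebrain factors (-0.24) with probes averaged, and for oligodendrocyte genes (0.24) under median centring. With the replicate block over the regional arrays, 20952 genes were called against the reference, 11606 relative to the other regions and 431 list genes. Whether same-numbered samples share mice is not stated, so it is unknown whether this block is a pairing. The block for slide or scan date was not run, since each array has its own slide and all regional arrays share 1 scan date. The 12 regional arrays alone changed no call among the 52 genes and added 2 against the reference. Probes near background in the reference limit the ratios of Slc6a5, Lbx1, Neurod1 and En1.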

Other observations

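Several genes have not been described above, most of them with cerebellum well apart from the other regions. Pnoc, the precursor of the peptide nociceptin, was at 0.19, 0.17 and 0.10 in cerebellum and between -2.12 and -0.72 elsewhere, a difference of 1.55 ± 0.14. Irx1, a homeobox gene, was at -0.13 against -1.95 to -1.32, and Barhl1, a factor of the rhombic lip lineage, at 0.10 against -1.39 to -0.82. None of the 3 was called against the reference. Bhlhe22 and Nrn1, genes of projection neurons, differed from the other regions by 1.68 and 1.88 and stood at -0.02 and -0.50. Ntn1, the guidance cue netrin, was at -0.78 against -2.25 to -1.69. Meis1, a homeobox gene of granule cell precursors, was at 1.05, within the range of 0.91 to 2.30 elsewhere.

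Of 21 Hox genes, which pattern the hindbrain behind the cerebellum and the spinal cord, 10 were called higher and 4 lower. Over all genes these shares were 42.5% and 33.1%. At least 2-fold higher were 3 Hox genes, against 8.36% of all genes, and the median of the list was 0.19. Hoxb6 and Hoxc5 were at 2.08 and 1.60, and the mean of each was above 0 in the other regions too. The second probe of Hoxb6 was at 0.09. Of 16 genes of monoamine and acetylcholine neurons, 3 were higher and 10 lower, of which 1 and 2 exceeded 2-fold, with a median of -0.22. Th, the rate-limiting enzyme of catecholamine synthesis, was at -0.96, Slc18a3, the vesicular acetylcholine transporter, at -1.15 and Ddc, the decarboxylase of monoamine synthesis, at 1.08 with a second probe at -0.70. Of 7 chloride cotransporters 1 was higher and 3 lower, 1 in each direction by at least 2-fold, with a median of -0.16 that became 0.09 under median centring. Slc12a5, the exporter that lowers neuronal chloride, was at -1.57, and Slc12a2, the importer of immature neurons, was at -0.16 and not called. Of 8 erythroid genes 3 were higher and 2 lower, 1 at least 2-fold lower, with a median of 0.12. Hba-a1, a haemoglobin chain, had values of -2.42, -1.99 and -1.21.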
